A study of Mus musculus with 12 samples.

Results

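The genes described here are the core of the hypoxia-inducible factor (HIF) pathway, 4 regulators and 6 target genes outside glycolysis, in mouse ovarian follicles that were vitrified or kept fresh before culture. Vitrification is cryopreservation by cooling into a glass-like solid. The 10 genes were taken by symbol, all 10 were among the 11806 genes of the authors' comparison, and all 10 carry an adjusted p there. They were chosen by gene symbol with the fold changes and p-values of this same comparison already known, so their values are a description and are not used as independent support for a change. The vitrified group held 6 follicles and the fresh group 6 follicles, each sequenced alone after growth for 8 days. Mice of the outbred CD-1 stock, 16 days old, supplied the follicles of both groups, which grew singly in 0.5% alginate with recombinant follicle-stimulating hormone at 10 mIU/mL. Whether follicles shared an animal is not in the labels, and p-values that treat follicles as independent may be too small.

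HIF-1 is a pair of proteins that switches on genes when oxygen is scarce. Hif1a encodes the oxygen-regulated alpha subunit and Arnt its constant partner. Egln1 encodes the prolyl hydroxylase that marks the alpha subunit when oxygen is present, and Vhl encodes the ubiquitin ligase subunit that binds the marked protein and leads to its destruction. This control acts on the protein, so the abundance of Hif1a messenger RNA does not measure HIF activity. A growing follicle has no blood vessels inside its basement membrane, and its granulosa cells and oocyte receive oxygen by diffusion.

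The target genes serve different ends. Ak4 encodes an adenylate kinase family protein of the mitochondrial matrix, Bnip3 a mitochondrial receptor for mitophagy, and Ndrg1 a stress-responsive cytoplasmic protein. Ero1l encodes the oxidase that recharges protein disulfide isomerase in the endoplasmic reticulum, P4ha1 a catalytic subunit of the collagen prolyl 4-hydroxylase, and Vegfa the main growth factor for blood vessels. HIF binds DNA at a short core, searched here as ACGTG or GCGTG on both strands. The promoter windows below, from RefSeq on GRCm38.p6, run from 250 bases before to 50 bases after a start site, and the windows of Ak4 and Ero1l are shown because these genes passed the authors' threshold.

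Ak4, chr4:101419039-101419338, plus strand: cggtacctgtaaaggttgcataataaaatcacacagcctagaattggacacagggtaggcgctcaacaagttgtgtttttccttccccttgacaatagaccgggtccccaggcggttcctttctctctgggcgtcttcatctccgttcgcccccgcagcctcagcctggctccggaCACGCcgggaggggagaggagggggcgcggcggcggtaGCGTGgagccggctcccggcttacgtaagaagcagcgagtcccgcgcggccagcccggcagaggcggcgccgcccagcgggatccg
Ero1l, chr14:45318523-45318822, minus strand, listed as Ero1a: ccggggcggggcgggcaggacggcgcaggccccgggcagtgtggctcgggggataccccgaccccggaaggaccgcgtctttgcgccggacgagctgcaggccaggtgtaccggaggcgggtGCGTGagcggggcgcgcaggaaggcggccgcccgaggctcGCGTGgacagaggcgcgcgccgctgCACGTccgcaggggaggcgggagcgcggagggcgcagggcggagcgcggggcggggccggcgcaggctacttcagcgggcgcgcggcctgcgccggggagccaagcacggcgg
Bnip3, chr7:138909457-138909756, minus strand, shown as the target of highest level: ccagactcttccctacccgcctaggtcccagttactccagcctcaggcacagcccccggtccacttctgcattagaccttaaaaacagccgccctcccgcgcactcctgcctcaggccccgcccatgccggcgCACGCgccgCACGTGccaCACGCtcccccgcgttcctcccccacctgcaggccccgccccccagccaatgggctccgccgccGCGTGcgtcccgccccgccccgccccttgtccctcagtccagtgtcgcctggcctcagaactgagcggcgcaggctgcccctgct
P4ha1, chr10:59323046-59323345, plus strand, shown as a target of small difference: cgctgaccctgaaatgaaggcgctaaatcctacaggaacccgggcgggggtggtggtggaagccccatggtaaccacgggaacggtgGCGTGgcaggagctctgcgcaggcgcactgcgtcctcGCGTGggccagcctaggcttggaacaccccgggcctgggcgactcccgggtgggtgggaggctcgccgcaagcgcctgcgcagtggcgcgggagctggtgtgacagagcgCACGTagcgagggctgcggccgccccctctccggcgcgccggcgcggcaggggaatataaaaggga
Vegfa, chr17:46032328-46032627, minus strand, shown as a target window with no match: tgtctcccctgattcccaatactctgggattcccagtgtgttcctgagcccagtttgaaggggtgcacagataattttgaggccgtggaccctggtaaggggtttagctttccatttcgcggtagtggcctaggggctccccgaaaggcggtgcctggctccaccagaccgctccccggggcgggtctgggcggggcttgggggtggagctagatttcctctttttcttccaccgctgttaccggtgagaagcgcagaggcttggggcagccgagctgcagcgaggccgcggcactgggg
Hif1a, chr12:73907617-73907916, plus strand, shown as a regulator with matches: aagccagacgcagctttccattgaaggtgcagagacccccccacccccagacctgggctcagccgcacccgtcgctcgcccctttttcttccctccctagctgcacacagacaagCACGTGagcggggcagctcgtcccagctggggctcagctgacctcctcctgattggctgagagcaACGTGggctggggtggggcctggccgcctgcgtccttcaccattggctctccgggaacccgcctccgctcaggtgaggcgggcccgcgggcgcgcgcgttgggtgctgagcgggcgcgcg
Capitals mark each match to the core, read on the gene's strand, so that CACGT and CACGC are matches on the opposite strand.

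Of the 10 genes, 9 had promoter windows in the RefSeq table, 13 windows in all, and the first window listed is the one printed. The core was found in at least 1 window of 8 of the 9 genes, and in the first window of 7. Across genes of the authors' comparison with a window, 69.4% of 8583 held the core in at least 1 window and 65.4% in the first. The narrower core ACGTG was found in at least 1 window of 7 of the 9 genes and of 30.2% of the 8583. Ak4 and Vegfa held ACGTG only outside their first window, and 26.9% of the 8583 genes held it in the first. These shares were not tested against each other. In the printed window of Ak4 the matches began at -74 and -36 relative to the start site, and in that of Ero1l at -128, -88 and -63. Bnip3 had 5 matches, of which those at -108 and -107 are the same CACGTG read on either strand, a sequence that is also the E-box of other transcription factors. Hif1a had a CACGTG too, and the first window of Vegfa and the window of Vhl had 0 matches. The window of Hif1a begins at 73907617, inside the gene, whose GENCODE span begins at 73901375. Its first 50 transcribed bases were not found in a GENCODE transcript. The same was true of both windows of Vegfa and of window 4 of Ak4, so these windows may not mark the annotated starts. A match is a description of the letters and is not evidence of binding.

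**Figure D1:**
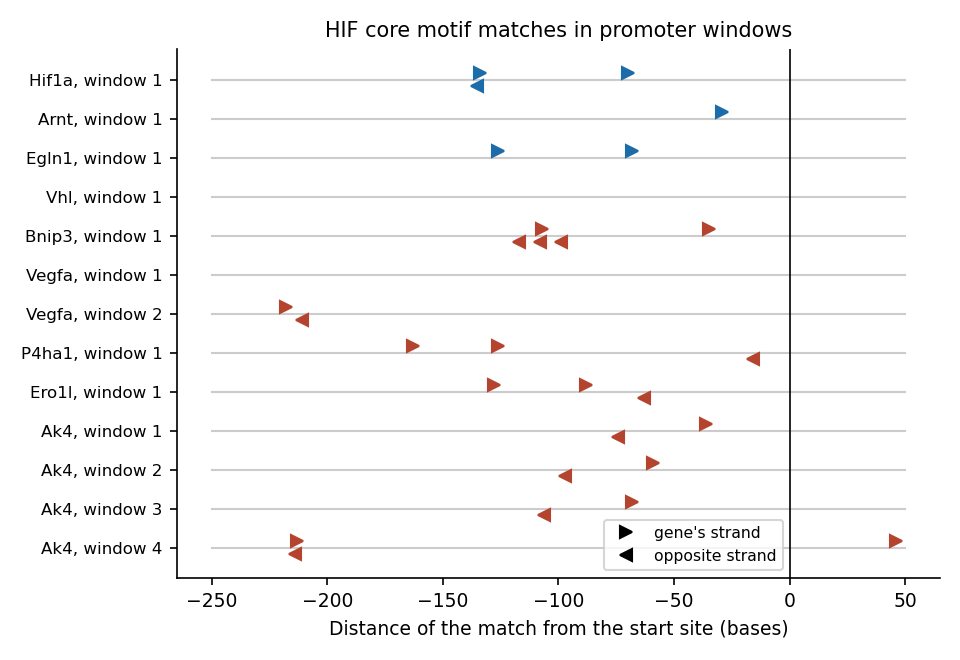
Positions of matches to the HIF core in the 13 promoter windows of 9 genes, with distance from the start site in bases on the x axis and 1 line per window. Triangles point right for the gene's strand and left for the opposite strand, in blue for regulators and red for targets, and the windows of Vhl and window 1 of Vegfa are empty.

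The comparison asked how far vitrified follicles differed from fresh ones in their transcripts. For each gene the authors give a pooled total, a fold change and p-values, and levels per follicle were not analysed here. Over all genes, 58 of the 10963 with an adjusted p passed 0.05, and the median change on the log2 scale was -0.02 (quartiles -0.22 and 0.17), in the authors' deposited table. All totals together came to 23783958, a gene's median being 273, and 32.2% of the sum lay in the predicted genes Gm10800, Gm10801 and Gm21738.

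All 6 targets had negative log2 fold changes in vitrified follicles, from -1.68 for Ak4 to -0.31 for P4ha1, in the authors' deposited table. Ak4 and Ero1l fell past the adjusted p of 0.05, while Bnip3 and Ndrg1, with log2 fold changes between theirs, did not pass it. With the p-values recomputed under a t distribution with 10 degrees of freedom, the adjusted p was 0.51 for Ak4 and 0.62 for Ero1l, and no gene of the whole table passed. Each library is a whole follicle, in which fewer cells of a type and less RNA per cell cannot be told apart. The 4 regulators lay between -0.76 and 0.25 in the authors' deposited table and none passed. The median was -0.88 over the 6 targets and 0.12 over the 4 regulators, against -0.02 over all 10963 genes, in the authors' deposited table. Of the 10 genes, 2 passed, both lower, where 0.283% of all tested genes were called lower and 0.246% higher, or 0.529% in all, in the authors' deposited table. At an unadjusted p under 0.05 there were 5 of 10, all lower, where the share over all tested genes was 3.79% lower and 3.24% higher, or 7.02% in all, in the authors' deposited table. As the genes were picked with this contrast known, nothing is read from these shares.

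**Figure D2:**
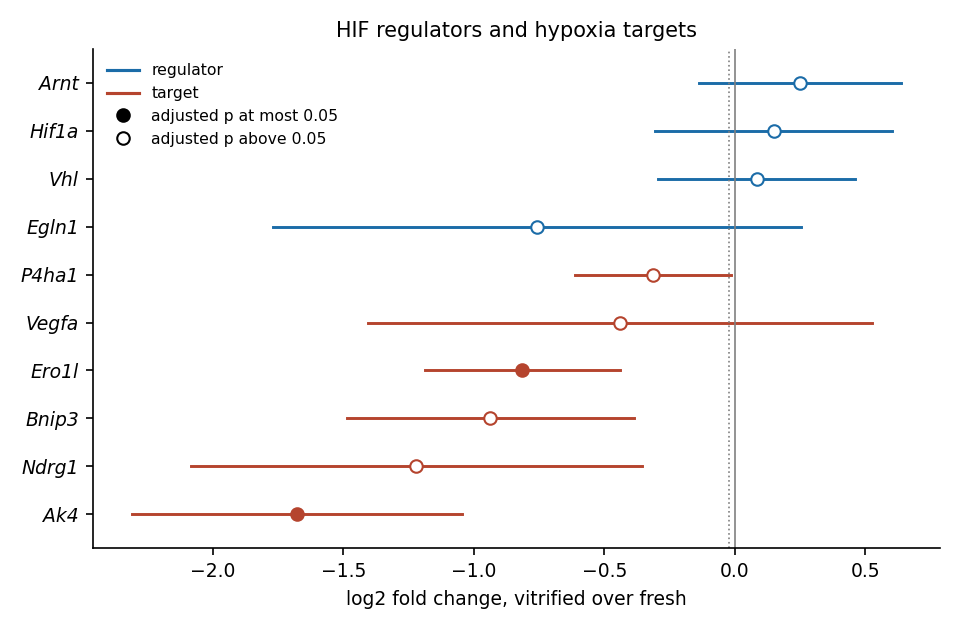
Log2 fold change of vitrified over fresh follicles for the 4 regulators (blue) and 6 targets (red), with 95% intervals derived from the deposited p-values. Filled circles mark an adjusted p of at most 0.05, the solid line is 0 and the dotted line the median of all genes (-0.02). All 6 targets lie left of 0, and 3 of the 4 regulators lie right of it.

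Among the regulators, Hif1a was the most abundant transcript, and it also led the whole set of 10. On a scale of pooled total per kilobase of exon, Hif1a stood at 5287, against 212 for Vhl, 70.0 for Arnt and 23.5 for Egln1. Its total of 31174 exceeded that of 99.5% of genes and made up 65.6% of the sum over the 10 members in the authors' deposited table. Hif1a spans chr12:73901375-73947530 (GRCm38), and 8.16% of its 50-base windows also occur in other genes, the overlapping Gm15283 and Gm49321. Its log2 fold change was 0.15 (95% interval -0.31 to 0.60, p = 0.52) in the authors' deposited table. This interval, like those below, was derived from the deposited fold change and p-value under a normal test. It allows anything from a level 0.809 times to a level 1.52 times that of fresh follicles.

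Arnt, on chromosome 3 from 95434388 to 95497240, stood at a log2 fold change of 0.25 (-0.14 to 0.64, p = 0.20) and Vhl, on chromosome 6 from 113623959 to 113631633, had 0.08 (-0.29 to 0.46, p = 0.66) in the authors' deposited table. The intervals of Hif1a, Arnt and Vhl all lay within 2-fold in either direction. Egln1, which is itself switched on by HIF, had -0.76 (-1.77 to 0.25, p = 0.14) in the authors' deposited table. Its total was only 84.5 in the authors' deposited table, higher than 15.2% of genes, and its interval spans both a 3.41-fold fall and no change. A difference of 2-fold was therefore not resolved for Egln1 at this depth.

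Among the mitochondrial targets, Ak4 showed the largest difference of the 10 genes. The gene lies on chromosome 4 from 101419277 to 101466995. Vitrified follicles had 3.20-fold less of its RNA, a log2 fold change of -1.68 (-2.31 to -1.04, adjusted p = 2.8e-04) in the authors' deposited table. Its p ranked 8 and its fold change 19 from the lowest among the 10963 genes of the authors' deposited table. The total of Ak4 was 841 in the authors' deposited table, a level of 181 per kilobase of exon, close to the 170 of Ero1l. The share of its 50-base windows that also occur elsewhere was 17.0%, all in the processed pseudogene Ak3l2-ps on chromosome 2, so part of its count is uncertain.

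Bnip3, on chromosome 7 from 138890836 to 138909519, stood at -0.94 on the log2 scale (-1.49 to -0.39, p = 8.4e-04, adjusted p = 0.11) in the authors' deposited table. It was next to Hif1a the most abundant of the 10 genes, at 3258 per kilobase of exon and a total of 7379 in the authors' deposited table. This value is limited, since 50.0% of its windows occur in another gene. Of its windows, 35.3% are shared with the long non-coding RNA AC160336.1 and 22.1% with the processed pseudogene Gm16439, both on chromosome 14. Of these, Gm16439 fell, with -1.38 on the log2 scale (adjusted p = 0.029), and AC160336.1, which did not pass, had -0.37 (-1.01 to 0.27) in the authors' deposited table. A further copy on chromosome 14, Gm6532, shares 17.6% of the windows and had -0.81 in the authors' deposited table, with no adjusted p. These 3 genes were chosen after their values were seen, and reads of the shared windows cannot be told apart between them and Bnip3. The antisense RNA Gm45507, on the opposite strand of Bnip3, shares 13.2% of the windows and was not among the genes compared.

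Ndrg1, on chromosome 15 from 66929318 to 66969640, had the largest difference among the targets that did not pass. Its log2 fold change was -1.22 (-2.08 to -0.36, p = 0.0056, adjusted p = 0.30) in the authors' deposited table. Ndrg1 was a low transcript, at 31.8 per kilobase of exon and a total of 210 in the authors' deposited table. Its fold change ranked 54 from the lowest among all genes, but its interval reaches a change as small as 1.28-fold lower. Antisense and divergent RNAs lie on the opposite strand of Ndrg1, Gm17035 and Gm2895, and whether counting used strand is not known here.

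Of the enzymes of the endoplasmic reticulum, Ero1l passed and P4ha1 did not, and the difference between them was not tested. Ero1l, on chromosome 14 from 45283087 to 45318771, fell 1.76-fold in vitrified follicles, a log2 fold change of -0.81 (-1.19 to -0.44, adjusted p = 0.0076) in the authors' deposited table. P4ha1, on chromosome 10 from 59323296 to 59373304, had -0.31 (-0.61 to -0.02, p = 0.039, adjusted p = 0.66) in the authors' deposited table. P4ha1 was far more abundant, at 1364 per kilobase of exon against 170 for Ero1l. The narrow interval of P4ha1 lay within 2-fold, so a fall as large as that of Ak4 lies outside it.

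Vegfa, on chromosome 17 from 46016993 to 46032369, stood at -0.44 on the log2 scale (-1.41 to 0.53, p = 0.37) in the authors' deposited table. With a total of 126 in the authors' deposited table and 29.4 per kilobase of exon it was among the lowest of the 10 genes, above Egln1 alone. Its interval covers a 2.65-fold fall as well as a rise, so the data do not settle its direction.

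**Figure D3:**
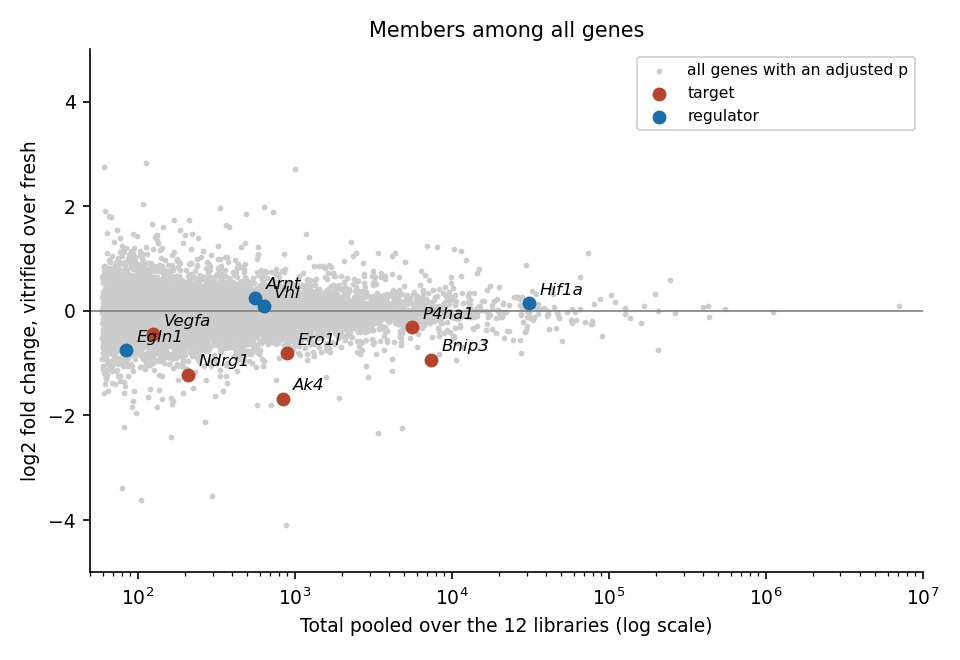
Log2 fold change of vitrified over fresh follicles (y axis) against the total pooled over the 12 libraries (x axis, log scale) for genes with an adjusted p (grey, 1 point per gene), with the targets in red and the regulators in blue. Ak4, at -1.68, lies below nearly all genes of like total, and Hif1a, at 0.15, lies at a high total near 0.

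Most of these genes belong to small families, and other genes of each family were set beside them. Families here mean genes that encode related proteins, and the differences between family members were not tested. Epas1, which encodes the HIF-2 alpha subunit, stood at 0.66 on the log2 scale (0.03 to 1.30, p = 0.040, adjusted p = 0.67) in the authors' deposited table, and Hif3a had 0.22 (-0.94 to 1.38). Per kilobase of exon, Hif1a stood at 9.19 times the level of Epas1. Arnt2 had 0.41 (-0.43 to 1.25) in the authors' deposited table. Of the other prolyl hydroxylases, Egln3, a known HIF target like Egln1, had -1.02 (-2.44 to 0.39) and Egln2 had 0.13 (-0.18 to 0.44) in the authors' deposited table. None of these 5 genes passed.

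The relatives given here for Ak4, Ndrg1, P4ha1 and Vegfa had intervals that include 0, while those of Bnip3 and Ero1l had intervals below 0, and none passed. Bnip3l, a mitophagy receptor close to Bnip3, stood at -0.51 (-0.86 to -0.16, p = 0.0040, adjusted p = 0.25) in the authors' deposited table. Of its windows 31.6% occur in the pseudogene Bnip3l-ps. Ero1lb, the other oxidase of the same kind, had -0.50 (-0.98 to -0.01, p = 0.045) in the authors' deposited table. The adenylate kinase genes Ak1, Ak3 and Ak6 lay between -0.18 and 0.47 in the authors' deposited table, against -1.68 for Ak4. The value of Ak6 is limited, since 66.9% of its windows are shared, 66.3% with Taf9, which overlaps it on the same strand. For Ak3 the share was 22.3%, and the total of Ak1 was only 95.9. Ndrg2, Ndrg3 and Ndrg4 lay between -0.14 and 0.13 in the authors' deposited table, against -1.22 for Ndrg1. P4ha2 had 0.03 (-0.54 to 0.60) and Vegfb 0.10 (-0.75 to 0.96) in the authors' deposited table.

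**Figure D4:**
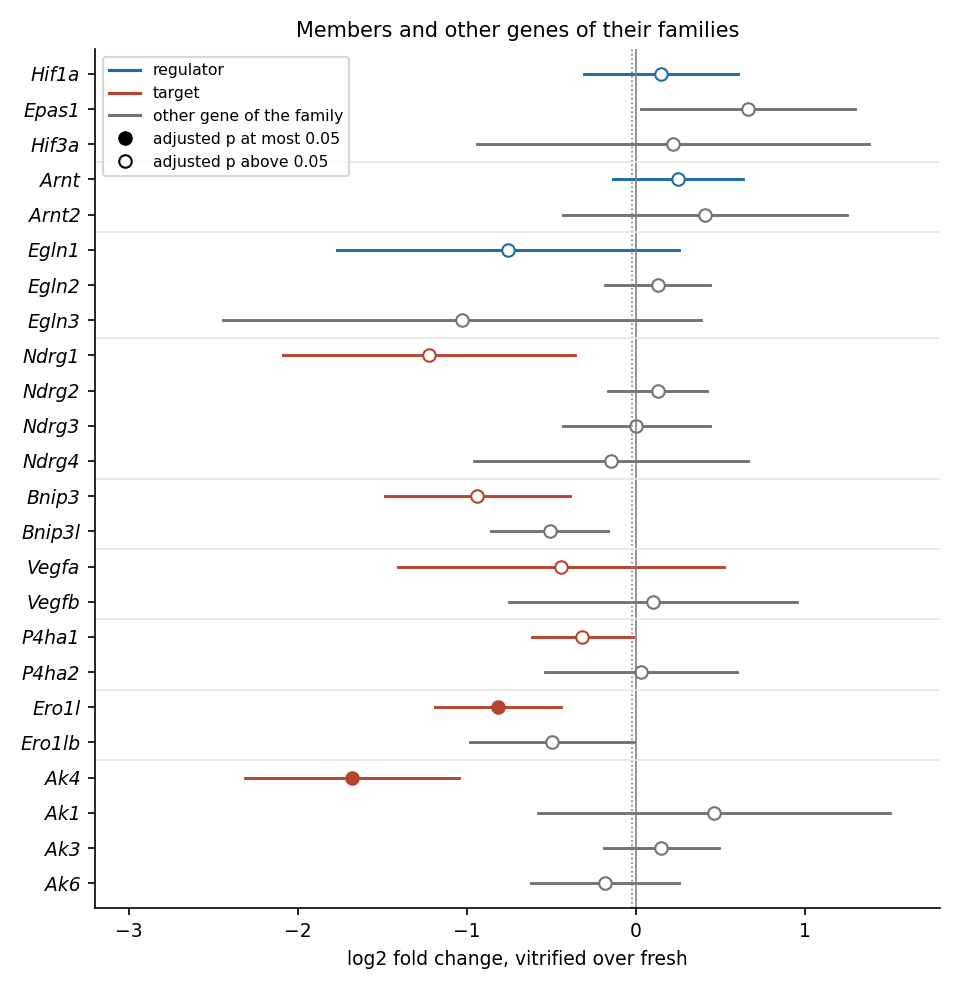
Log2 fold change of vitrified over fresh follicles with 95% intervals for 9 members and for the relatives named in the text (grey), with horizontal lines between families. Ak4 and Ndrg1 stand at -1.68 and -1.22, left of every relative drawn, and the relatives of Bnip3 and Ero1l lie at -0.51 and -0.50.

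Beyond the 4 regulators, 15 of 16 listed genes that control HIF were analysed, 14 of them with an adjusted p. Of these 14, 8 were lower and 6 higher, with a median of -0.03 on the log2 scale, and 0 passed in the authors' deposited table. At an unadjusted p under 0.05, which 7.02% of all tested genes met, there were 2, Epas1 higher and Cited2 lower. Over all tested genes 53.2% were lower. Cited2, which encodes a HIF-induced protein that competes with HIF for its coactivators, had -0.58 (-1.14 to -0.01, p = 0.044) in the authors' deposited table. The coactivator gene Ep300 had -0.25 (-0.75 to 0.24) and Hif1an, the asparagine hydroxylase of HIF, 0.04 (-0.43 to 0.51) in the authors' deposited table. The ubiquitin ligase partners of Vhl, which are Cul2, Eloc, Elob and Rbx1, lay between -0.33 and 0.00 in the authors' deposited table. Ep300, Hif1an and the ligase genes were chosen after their values were seen.

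A wider list of hypoxia targets outside glycolysis had 29 of 33 genes analysed, 27 with an adjusted p. Of these 27, 21 were lower and 6 higher, with a median log2 fold change of -0.40, where 53.2% of all 10963 genes were lower with a median of -0.02 in the authors' deposited table. Egln3, at -1.02, is in this list and in that of genes that control HIF, and is counted in both. The target list was drawn up with results of the related genes known, so its direction is not independent evidence. Kdm4b, a histone lysine demethylase gene, was the only gene of this list that passed, with -0.60 (-0.92 to -0.28, adjusted p = 0.043) in the authors' deposited table. Over all tested genes 0.283% were called lower and 0.246% higher, or 0.529% in all. At an unadjusted p under 0.05 there were 10 of 27, all lower, where 3.79% of all tested genes were lower at that level. Fam162a, a mitochondrial protein gene induced by hypoxia, had -0.65 (-1.01 to -0.29, adjusted p = 0.063) in the authors' deposited table. Mxi1, which encodes a MYC antagonist, was chosen after its values were seen and had -1.51 (-2.36 to -0.67, adjusted p = 0.071) in the authors' deposited table. Tfrc, the transferrin receptor gene, likewise chosen with its values seen, had -1.03 (-1.62 to -0.44, adjusted p = 0.094) in the authors' deposited table.

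Not all HIF targets lay low. Pdk1, which encodes the kinase that shuts off pyruvate dehydrogenase and was chosen after its values were seen, had 0.01 (-0.35 to 0.38) in the authors' deposited table. Plod2, a collagen lysyl hydroxylase gene with the highest total of this list at 20802, had -0.10 (-0.54 to 0.34) in the authors' deposited table. Both intervals lay within 2-fold. Igfbp3, chosen after its values were seen, had -1.26 with an interval of -3.54 to 1.03 in the authors' deposited table, too wide to place it.

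**Figure D5:**
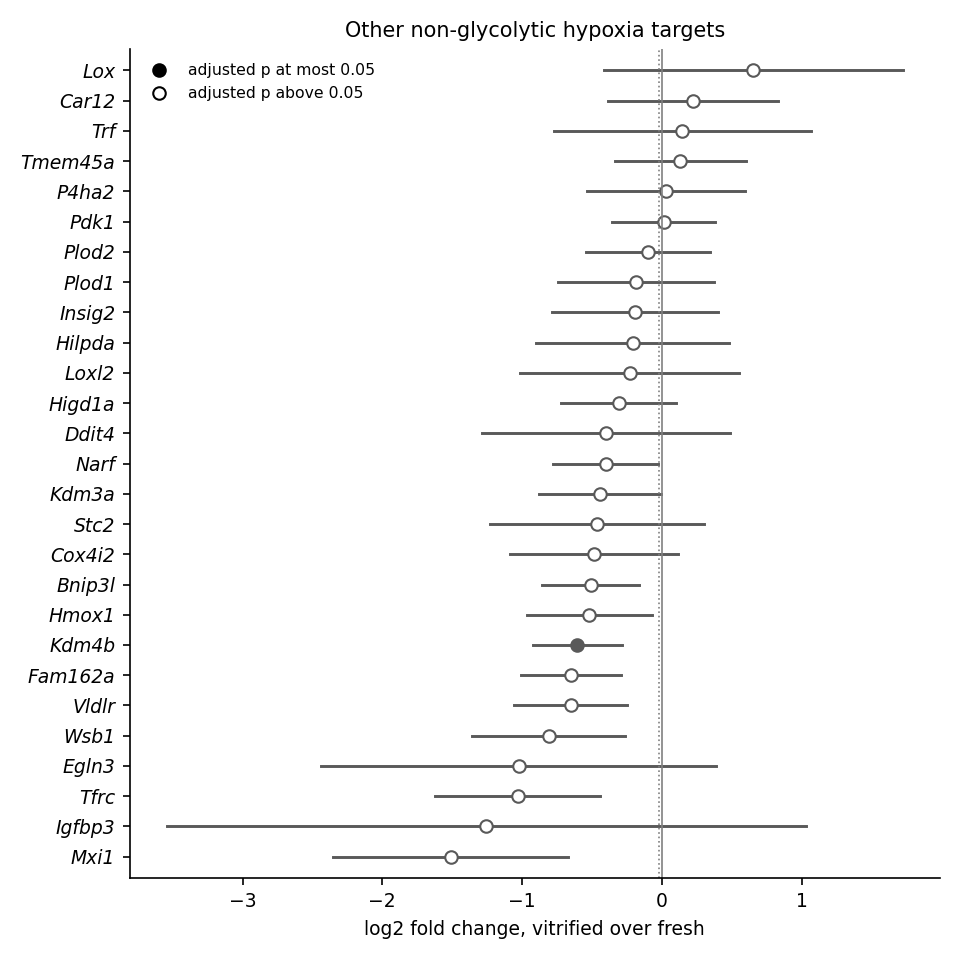
Log2 fold change of vitrified over fresh follicles with 95% intervals for 27 hypoxia targets outside glycolysis that are not among the 6 targets described above, from highest to lowest. The filled circle is Kdm4b at -0.60, the only gene of the list with an adjusted p of at most 0.05, and 21 of the 27 lie left of 0.

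Of 17 glycolysis genes that are known HIF targets, 16 were lower, with a median of -0.34 on the log2 scale, and 3 passed, all lower, in the authors' deposited table. Over all tested genes 53.2% were lower and 0.283% were called lower, and this list too was chosen with results of these data known. These were the glucose transporter gene Slc2a1 at -1.81, the hexokinase gene Hk2 at -1.72 and the glycolytic activator gene Pfkfb3 at -0.99 in the authors' deposited table. Aldoa, with the highest total of this list at 136948, had -0.14 (-0.53 to 0.24) in the authors' deposited table. The log2 fold change of Ak4, at -1.68, lay close to those of Slc2a1 and Hk2.

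Genes that work beside single targets were read from the lists for those functions. In collagen hydroxylation, 4 of 7 tested genes were lower with a median of -0.10 on the log2 scale and 0 passed in the authors' deposited table. P4hb, which makes protein disulfide isomerase and the beta subunit that pairs with the P4ha1 product, had -0.35 (-0.70 to -0.01, p = 0.045) at a total of 41865 in the authors' deposited table. P3h2, a prolyl 3-hydroxylase gene of low total that has no adjusted p and is not among those 7, had -0.82 (-1.97 to 0.34) in the authors' deposited table. In disulfide formation of the endoplasmic reticulum, 8 of 12 genes were lower with a median of -0.27, 3 at an unadjusted p under 0.05, all lower (3.79% over all tested genes), and 0 passed in the authors' deposited table. P4hb is counted in this list as well. Pdia4, another disulfide isomerase gene, had -0.28 (-0.55 to -0.01, p = 0.040), while Pdia3, chosen after its values were seen, had 0.04 (-0.28 to 0.36), in the authors' deposited table.

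Beside Vegfa, a list of VEGF family genes, receptors and co-receptors was read. Flt1 stood at -1.54 (-3.73 to 0.66) and Kdr, without an adjusted p, at -1.42 (-3.32 to 0.47) on the log2 scale in the authors' deposited table. The co-receptor genes Nrp1 and Nrp2 had 0.36 and -0.82, and Flt4, a receptor of lymphatic vessels with the highest total of this list, had 0.22, in the authors' deposited table, and none of the 5 tested genes of the VEGF list passed (0), nor did any have an unadjusted p under 0.05 (0).

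Markers of the cell types in a follicle were read beside these values. Over all tested genes 53.2% were lower, with a median of -0.02 on the log2 scale. Endothelial markers were lower in 6 of 7 tested genes, with a median of -0.68 on the log2 scale, summed totals of 3211 over the 8 genes analysed, and 0 passed in the authors' deposited table. Cdh5, a vessel cadherin gene, had -1.66 (-3.45 to 0.13) but Cd34 0.77 (0.18 to 1.35) in the authors' deposited table. Of the summed totals, Cdh5 held 1912 and Cd34 651, and the lowest total of the 8 genes was 46.1. Theca markers were higher in 6 of 7 with a median of 1.19 and 0 passed in the authors' deposited table. Those of lowest p were Aldh1a1 at 1.19 (0.50 to 1.88) and Star at 1.60 (0.66 to 2.53), and the steroid enzyme gene Hsd3b1 had -0.11 (-0.47 to 0.25), in the authors' deposited table. Insl3 had the highest log2 fold change of these markers, 2.70 (1.06 to 4.34, adjusted p = 0.14), in the authors' deposited table. It is a peptide hormone gene of theca cells and was picked for this value. The value is limited, since 60.9% of the windows of Insl3 also occur in Jak3, which overlaps it on the same strand. Reads of the shared windows cannot be told apart between Insl3 and Jak3. Oocyte markers were higher in 5 of 5 tested genes, with a median of 0.58, and 0 passed in the authors' deposited table. The zona pellucida genes Zp2 and Zp3 had 1.29 (-0.39 to 2.97) and 1.05 (-0.48 to 2.58), and the growth factor gene Gdf9 0.43 (-0.63 to 1.48), in the authors' deposited table. Granulosa markers were split, 4 of 7 lower, with a median of -0.02 and 0 passed in the authors' deposited table. Inha, the inhibin alpha subunit gene of granulosa cells, had -0.02 (-0.33 to 0.29) at a total of 1121843 in the authors' deposited table. The hormone receptor gene Fshr had 0.67 (0.14 to 1.20) and the activin-binding protein gene Fst -0.82 (-1.48 to -0.17) in the authors' deposited table. At an unadjusted p under 0.05, which 7.02% of all tested genes met, there were 3 theca genes, all higher, 1 endothelial gene, Cd34, also higher, and 2 granulosa genes, Fshr higher and Fst lower, and 0 oocyte genes. The part of cell make-up in the values of Ak4, Ero1l and the other targets was not tested.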

How the data were processed

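RNA of 12 single follicles, 6 vitrified and 6 fresh by their titles, was sequenced from Smart-seq libraries, per the labels' protocols. Per the submitters' processing notes, the build was mm10 and the tools included DESeq2, Partek, HISAT2 and Bowtie2, without versions or roles. How reads were counted, on which strand and with which annotation is not stated in the labels.

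The authors deposited 1 table with 11806 genes, which gives per gene a total over libraries, a p-value, its step-up adjusted form and the change both as a signed fold and on the log2 scale. The p-value and log2 columns deposited by the authors were used as given, and their signed fold change, a score that is negative where vitrified follicles were lower, gave the fold sizes. Whole numbers, within 0.001, made up 0.237% of the totals, which were therefore not used as counts. An adjusted p is missing for 843 genes, those with a total of at most 59.4. As no value per follicle was used, no model was refitted, and the threshold was the authors' adjusted p of 0.05.

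With Python 3.11.15 and scipy 1.17.1, a standard error was derived from each fold change and p as for a two-sided normal test, and 95% intervals from it, which hold counting error and the spread between follicles together (median error 0.29 on the log2 scale). Tested on data simulated under the same normal assumption, the derivation returned the errors put in, which does not test the assumption itself. Depth per follicle was not given, and precision is stated by the intervals. Coordinates, exon lengths and windows of 50 bases, taken every 25 bases and looked for on either strand in other genes' transcripts, came from GENCODE M21 (GRCm38). Promoter windows came from RefSeq.

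The genes and lists were chosen with earlier results of these data known. The rule for names took all 10 genes, and from each list the genes that passed, the 2 of lowest p and the gene of highest total. Families are named whole, except for an item that is not reported here, and other names were chosen after their values were seen, as marked. With 1 comparison no likeness of pattern was measured. The alternatives were other adjustments of p, other centrings, another gene length and a narrower motif.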

Additional observations from a re-analysis of the deposited data

How the results depend on the processing

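Ak4 and Ero1l remained the 2 called genes of the 10, and Kdm4b the 1 called gene of the wider target list, with the Benjamini-Hochberg adjustment recomputed, without a filter on totals and at a total of at least 120. Leaving out Bnip3, the gene with at least 50% of its windows shared, also left 2. With the normal replaced by a t distribution with 10 degrees of freedom, 0 of the 10 genes and 0 of the wider target list passed, but 0 of all 10963 genes did, so this loss is not particular to these genes, and the authors' test is not known here. Over the alternatives the adjusted p was between 2.2e-04 and 0.51 for Ak4 and between 0.0068 and 0.62 for Ero1l. The wider regulator list had 0 called under each of these adjustments. The 7 genes with a negative fold change stayed 7 when centred on the median (-0.02) or the total-weighted mean (-0.01), and no gene changed sign. With the longest transcript in place of exon length, Ak4 and Ero1l changed places in order of level. With ACGTG alone, 7 of the 9 genes held a match in at least 1 window, Ak4 and Vegfa only outside the first. The share over 8583 genes of the comparison was 30.2%, or 26.9% in the first window. No paired analysis was possible because the data used hold no value per follicle, which also prevented leaving out follicles. Genes of low total, such as Egln1 and Vegfa, had intervals wider than 2-fold.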

Other observations

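Beside Bnip3, 13 genes of mitophagy and its ATG8 family adaptors were analysed, Bnip3l among them. Of these, 3 were lower and 10 higher in vitrified follicles, the median was 0.13 on the log2 scale, and 0 passed in the authors' deposited table. Over all tested genes 53.2% were lower with a median of -0.02, and the difference of these genes from Bnip3 was not tested. At an unadjusted p under 0.05 there were 1 lower, Bnip3l, and 2 higher, where 3.79% of all tested genes were lower and 3.24% higher. Fkbp8, a mitochondrial receptor gene for mitophagy, had 0.43 (0.08 to 0.77, p = 0.015, adjusted p = 0.47) in the authors' deposited table. Sqstm1, an autophagy receptor gene with the highest total of this list at 35575, had 0.12 (-0.31 to 0.55) in the authors' deposited table. Pink1, chosen after its values were seen, had 0.45 (-0.27 to 1.18) in the authors' deposited table.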
